A study of Sus scrofa with 60 samples.

Results

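Sham-operated newborn pigs given parenteral nutrition (PN) with a soy lipid emulsion (SLE-sham, 10 pigs) were compared with sham-operated pigs fed enterally (ENT-sham, 12 pigs). Both sets were chosen by the diet and surgery in their labels, and they make up 22 of the 60 liver RNA libraries of the study. The study asked whether the type of PN lipid changes liver injury in a pig model of obstructive cholestasis, in which bile duct ligation (BDL) or sham surgery was combined with enteral feeding, SLE, or a mixed lipid emulsion (MLE). All named genes were examined in the comparison described here, and the contrast is of sham pigs only, taken from a model fitted to all 60 libraries.

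Pigs of both groups came from mixed Landrace and Hampshire sows and were delivered preterm by cesarean section, and surgery was done on the first day of life. Each received a jugular catheter, and the bile duct was not ligated. ENT-sham pigs were fed a milk replacer through an orogastric tube, and SLE-sham pigs received complete PN with Intralipid, an emulsion made from soybean oil. According to the study's methods all pigs began on PN, and enteral pigs were moved off it stepwise, so the controls were not free of PN in their first days of life. Male and female pigs were used, and livers were taken at day 14. RNA came from whole liver, so fewer cells of a type and less RNA per cell cannot be told apart.

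Bile acids are made from cholesterol in hepatocytes, excreted into bile, and taken up again in the ileum, where the nuclear receptor FXR induces FGF19, a hormone that restrains bile acid synthesis in the liver. Nutrients given into a vein bypass the intestine and do not drive this loop as a meal does. Infants on prolonged PN can develop cholestasis and steatosis, and plant sterols of soy emulsions are among the components that have been linked to it.

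The deposited table holds raw read counts for 30335 named genes. The 22 libraries held 14469788 to 21139248 counted reads (median 17483918), with a median of 17810100 in ENT-sham and 17360067 in SLE-sham. Levels are given as CPM, read counts scaled to library size by the TMM method, so values compare pigs for 1 gene and not different genes with each other. Fold changes are log2 values of SLE-sham over ENT-sham with their standard error (SE), and a gene was called, and is said to have risen or fallen, where the adjusted p lay under 0.05 and the change exceeded 2-fold. Each library came from its own pig by its label, except for SLE-sham replicates 9 and 10, which share 1 pig identifier in their labels. Compared gene by gene, the counts of this pair gave 31.7 as chi-square per degree of freedom, within the 26.7 to 92.5 of the 45 SLE-sham pairs, and each was kept and also left out in turn. The p values rest on the spread between pigs, estimated over all 60 libraries in 1 model, and a model of the 22 sham libraries alone called fewer genes (668 in place of 846).

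ENT-sham replicate 2 stood apart from its group. Its counts lay closer to ENT-BDL replicate 1 than those of any other of the 1770 pairs of libraries, with a chi-square per degree of freedom of 1.87 over 17232 genes against 15 in the next closest pair. Against the other 11 ENT-sham pigs the same measure ran from 84.9 to 124, whereas those 11 differed from each other by 18.7 to 69.1. It held the highest or the lowest ENT-sham value of 5904 of the 16210 genes tested, compared with 1241 to 3430 genes for each of the other 11. MMP7, a matrix protease of injured bile ducts, stood at 227 CPM in this library and at no more than 9.87 CPM in the rest of its group. The library was kept under its label, and results are given with and without it.

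Hepatocyte markers were abundant in all 22 libraries, which are labelled as liver. The 7 defining hepatocyte genes (ALB, TTR, TF, APOA1, SERPINA1, AHSG, and HNF4A) summed to 83314 to 167802 CPM in ENT-sham, where replicate 2 was the lowest, and to 114009 to 173769 CPM in SLE-sham. Summed cholangiocyte markers ran from 73.5 to 374 CPM in ENT-sham, or to 203 without replicate 2, and from 221 to 383 in SLE-sham, so apart from that library the sums did not overlap. Of these markers SPP1 (log2 fold change 2.5) and KRT19 (1.26) were called higher with all pigs. CLDN4 (0.738), KRT7 (0.42), EPCAM (0.0471), CFTR (-0.162), and SOX9 (-0.471) were not called. CLDN4 and SPP1 had the highest medians in SLE-sham, 126 and 106 CPM, against 66.6 and 14.1 CPM in ENT-sham. Stellate cell markers had medians of 1234 and 1731 CPM and Kupffer cell markers medians of 1020 and 859 CPM, and both lists overlapped between the groups. What part these marker levels play in the changes described next was not tested. Of 114 named genes, 16 overlap a neighbour counted at 10% or more of their own level, among them S100G, DERL3, FMO5, CYP7A1, and ADH4, and the strand setting of the counts is not given in the sources used here.

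SLE-sham differed from ENT-sham at 846 of 16210 genes. Of these 393 were higher (2.42% of genes tested) and 453 were lower (2.79%). Without ENT-sham replicate 2 there were 926 calls, 487 higher (3.01% of 16179) and 439 lower (2.71%), and 797 of the 846 were among them. At any fold change, 4463 genes (27.5%) passed the adjusted p, 2220 higher and 2243 lower, and the median log2 fold change of all genes was -0.008. Most called genes changed by less than 4-fold. A change of 4-fold or more was seen in 78 of the higher and 102 of the lower genes, and of 8-fold or more in 26 and 32. Values of the groups did not overlap for 276 of all genes tested (1.7%), and for 506 (3.12%) when replicate 2 was left out. Among called genes, 39 of the higher and 69 of the lower ones did not overlap, and 89 and 113 without that library.

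**Figure D1:**
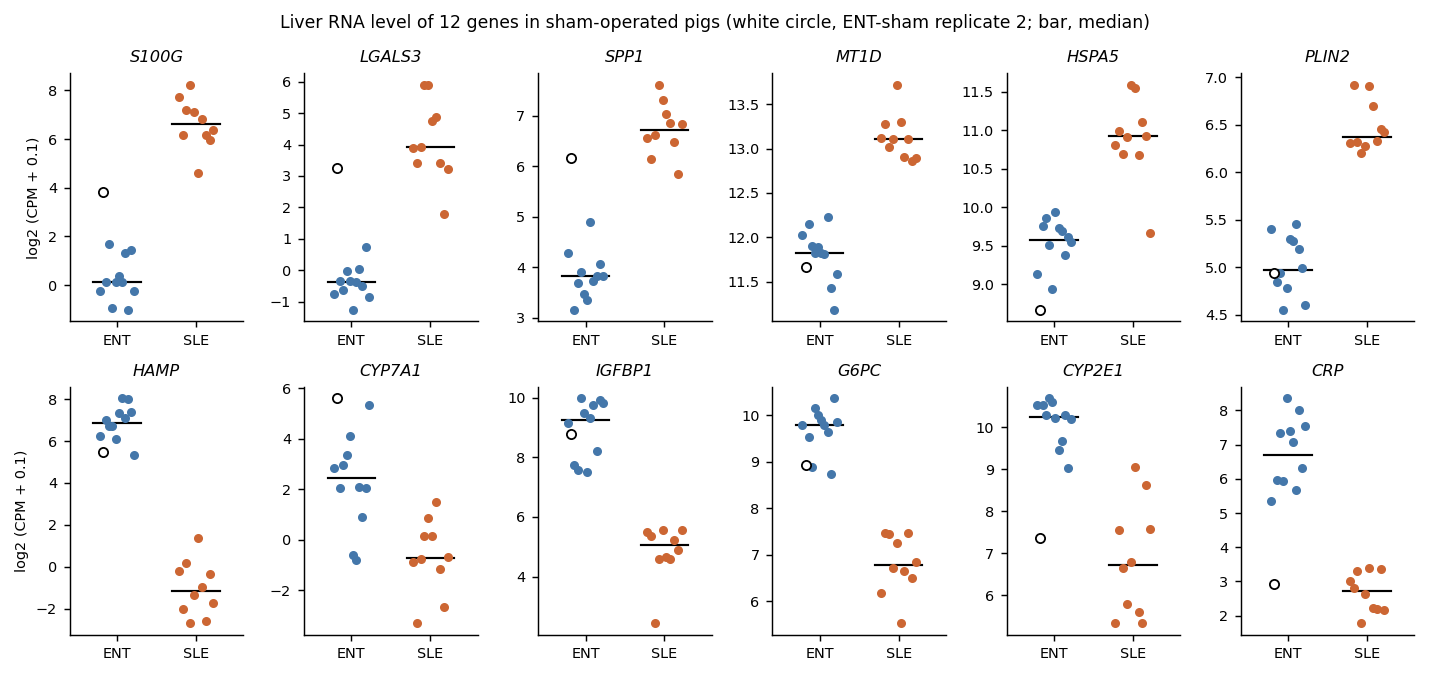
Level of 12 genes in each pig, as log2 (CPM + 0.1), in ENT-sham (blue) and SLE-sham (orange), with the median as a bar and ENT-sham replicate 2 as a white circle. Groups were wholly separate for S100G, MT1D, PLIN2, HAMP, IGFBP1, and G6PC, and for LGALS3, SPP1, and CRP once the white circle is set aside, whereas CYP7A1, CYP2E1, and HSPA5 overlapped.

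HAMP and IGFBP1 were among the genes with the largest falls. HAMP (chromosome 6, 44785863-44787303) encodes hepcidin, the liver hormone that blocks iron export from cells. It ranged over 40 to 267 CPM (median 116) in ENT-sham and over 0.0535 to 2.52 CPM (median 0.352) in SLE-sham. The SLE-sham values rest on 1 to 45 reads (median 5.5), so the size of the fold is imprecise. Every SLE-sham pig lay far below every ENT-sham pig (log2 fold change -7.66, SE 0.52, adjusted p = 1.25e-16), and the fold change was -7.74 without replicate 2 and -8.06 with the identifier block, a model that also fits the number in the pig identifiers described at the end. IGFBP1 (chromosome 18, 50018487-50022799), a binding protein of insulin-like growth factors, was at 181 to 1022 CPM (median 605) in ENT-sham and 5.27 to 47.2 CPM (median 33.5) in SLE-sham, also with no overlap (log2 fold change -4.17, SE 0.49, adjusted p = 2.35e-09).

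Of the 25 genes of iron handling tested, 3 were lower (12%, beside 2.79% of all genes) and 1 was higher (4%, beside 2.42%), and 13 lower and 5 higher genes (72% in all, beside 27.5%) passed the adjusted p at any fold change. Beside HAMP, the lower genes were BMP6 and ATOH8, which belong to the BMP signal that turns on hepcidin in iron-loaded liver. BMP6, the ligand of that signal, ranged over 8.27 to 19.7 CPM (median 13.2) in ENT-sham and 2.89 to 9.04 CPM (median 4.87) in SLE-sham (log2 fold change -1.41, SE 0.20, adjusted p = 1.33e-07), and 9 of the 10 SLE-sham pigs were below every ENT-sham pig. ATOH8, a transcription factor downstream of it, was at 7.25 to 24.7 CPM (median 13.3) in ENT-sham and 2.17 to 4.87 CPM (median 3.2) in SLE-sham without overlap (log2 fold change -2.06, SE 0.19, adjusted p = 8.1e-13). TFRC, the transferrin receptor that brings iron into cells, was the gene that rose. Its levels were 21.4 to 63.4 CPM (median 33.9) in ENT-sham and 88.3 to 129 CPM (median 113) in SLE-sham, again with separate groups (log2 fold change 1.53, SE 0.18, adjusted p = 1.42e-09).

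Where genes for metallothioneins and trace metals were called, they were higher in SLE-sham. Among the 14 tested genes for metallothioneins and trace metals 5 were higher, a share of 35.7% beside the 2.42% of all genes, and none was lower. MT3 (chromosome 6, 18634735-18636134) and MT1D, metallothioneins that bind zinc and copper, rose without overlap of the groups. MT3 was at 12.9 to 93.2 CPM (median 50.8) in ENT-sham and 227 to 964 CPM (median 347.9) in SLE-sham (log2 fold change 3.13, SE 0.30, adjusted p = 6.24e-12). MT1D, one of the most abundant transcripts in these livers, was at 2320 to 4814 CPM (median 3623) in ENT-sham and 7456 to 13509 CPM (median 8836) in SLE-sham (log2 fold change 1.33, SE 0.12, adjusted p = 9.24e-13). GPX3, a selenium-containing plasma glutathione peroxidase, rose by 2.08 (SE 0.44), and the identifier block gave 1.27. SLC39A4, a zinc importer, rose by 1.12 (SE 0.30), but its block value of 0.98 lay under 2-fold.

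Of 15 tested bile acid synthesis genes 4 were lower (26.7%) and none was higher. CYP7A1 (chromosome 4, 74343101-74372628), the rate-limiting enzyme of the classical pathway, ranged over 0.467 to 49.4 CPM (median 5.58) in ENT-sham and 0 to 2.73 CPM (median 0.499) in SLE-sham. It varied widely among enteral pigs, and 4 of the 10 SLE-sham pigs fell below all of them (log2 fold change -3.87, SE 0.68, adjusted p = 1.41e-05). ENT-sham replicate 2 held the highest value, and the fold change without it was -3.38 (adjusted p = 5.84e-05). SLC27A5, which activates bile acids for conjugation with glycine or taurine, was at 131 to 538 CPM (median 381) in ENT-sham and 56 to 176 CPM (median 98) in SLE-sham (log2 fold change -1.84, SE 0.27, adjusted p = 3.17e-07). AKR1C1, of an aldo-keto reductase family that reduces steroids and sterol intermediates, fell by 2.45 on the log2 scale (SE 0.35). CYP4A21, a sterol hydroxylase of pig liver, fell by 1.07 (SE 0.37), a call that 6 of the fits with 1 pig left out did not keep. Another gene with the symbol AKR1C1, nearby on chromosome 10, fell by 1.12 (SE 0.23), and reads of the pair could be split between them.

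Bile acid transporters changed in both directions, with 4 of 17 tested genes higher (23.5%) and 1 lower (5.88%). SLC51A and SLC51B encode the subunits of OST, a transporter that moves bile acids from liver cells back into blood. SLC51A (chromosome 13, 133851775-133869753) was low in enteral pigs at 0.374 to 8.6 CPM (median 0.748), where replicate 2 was the highest and the others reached 1.66, and stood at 2.37 to 20.1 CPM (median 6.92) in SLE-sham. Apart from replicate 2 the groups did not overlap (log2 fold change 2.52, SE 0.57, adjusted p = 0.000571, or 3.37 without it). SLC51B rose by 1.26 (SE 0.31, 1.53 without replicate 2), with overlap. ABCB4, the pump that puts phospholipid into bile, was at 32 to 117 CPM (median 52.1) in ENT-sham and 75.6 to 312 CPM (median 114) in SLE-sham (log2 fold change 1.31, SE 0.27, adjusted p = 0.000142). Its fold change was 1.09 with the identifier block and 0.80 in the shared identifier numbers alone, where it was not called (adjusted p = 0.0557). It also stood above MLE-sham, by 1.34 (SE 0.30, adjusted p = 0.0116). SLCO1A2, an importer of organic anions, fell, with 14 to 72 CPM (median 38.9) in ENT-sham and 3.9 to 16.8 CPM (median 7.62) in SLE-sham (log2 fold change -2.23, SE 0.24, adjusted p = 1.27e-10), and the groups were separate without replicate 2.

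None of 8 tested genes of FXR signalling was called by edgeR or DESeq2, but 5 (62.5%) passed the adjusted p at any fold change, beside 27.5% of all genes, 2 of them higher and 3 lower. KLB, the co-receptor of FGF19 in liver, was at -0.84 (SE 0.15, adjusted p = 1.2e-05) and FGFR4, the receptor, at 0.30 (SE 0.076, adjusted p = 0.00173), both chosen after their values were seen. The same 5 passed an unadjusted p under 0.05, as did 37.1% of all genes tested. NR1H4, which encodes FXR, was at 79.9 to 118 CPM (median 97.6) in ENT-sham and 71.4 to 96.1 CPM (median 86.8) in SLE-sham (log2 fold change -0.20, adjusted p = 0.0195), a difference that passed the adjusted p at far less than 2-fold. NR0B2, the repressor SHP that FXR induces, was at 21.9 to 41.6 CPM (median 28.3) and 26.5 to 47.1 CPM (median 35.3) (log2 fold change 0.30, adjusted p = 0.149). FGF19 had 0 counts in all 22 libraries, which allows up to 3 counts in a library by counting error alone, and was not tested. The 2 most abundant genes of the list, HNF4A (0.0041, SE 0.084) and RXRA (-0.29, SE 0.10), were not called.

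Most cholesterol synthesis genes tested were higher, by less than 2-fold in the main. Of 24 tested genes 16 passed the adjusted p and were higher (66.7%), and none was lower. Of all genes 27.5% passed it in either direction. The median log2 fold change of the list was 0.398, but only 2 genes were called (8.33%, beside 2.42% of all genes). HMGCS1 (chromosome 16, 27936225-27957261), which makes the precursor of mevalonate, ranged over 105 to 553 CPM (median 188) in ENT-sham and 479 to 1257 CPM (median 920.5) in SLE-sham (log2 fold change 2.06, SE 0.20, adjusted p = 9.35e-12). Enteral pigs other than replicate 2 did not exceed 306 CPM, so the groups were separate without it. None of 14 sterol efflux genes was called by edgeR or DESeq2, and 7 (50%) passed an unadjusted p under 0.05, beside 37.1% of all genes. The most abundant of these, LCAT (-0.29, SE 0.09) and ABCA1 (0.14, SE 0.10), are a cholesterol-esterifying plasma enzyme and a cholesterol exporter. ABCG5 and ABCG8, the subunits of the pump that returns plant sterols to bile and chosen after their values were seen, had fold changes of 0.97 (SE 0.13, adjusted p = 2.28e-08) and 0.84 (SE 0.12, adjusted p = 3.17e-07), just under 2-fold. Without replicate 2, ABCG5 was called, at 1.02.

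In the list of lipogenesis and desaturation 2 of 24 tested genes were higher (8.33%, beside 2.42% of all genes) and 1 was lower (4.17%, beside 2.79%). PLIN2 (chromosome 1, 203683867-203709277), the coat protein of lipid droplets, ranged over 23.3 to 43.7 CPM (median 31.2) in ENT-sham and 73.6 to 121 CPM (median 83) in SLE-sham, with no overlap (log2 fold change 1.46, SE 0.17, adjusted p = 1.41e-09). LPL, counted with the apolipoprotein genes, the lipase that frees fatty acids from circulating lipid particles, was close to 0 in enteral pigs at 0 to 0.766 CPM (median 0.135) and stood at 0.579 to 10.6 CPM (median 2.41) in SLE-sham (log2 fold change 4.37, SE 0.57, adjusted p = 2.23e-08). Only counts of a few reads lie behind the enteral values, so the size of this fold change is not precise. MFSD2A, counted with the PPARA targets, a carrier of lysophospholipids such as those with docosahexaenoic acid, was likewise near 0 in ENT-sham at 0 to 1.62 CPM (median 0.0628) and at 1.23 to 11.11 CPM (median 2.5) in SLE-sham (log2 fold change 3.82, SE 0.82, adjusted p = 0.000286). DGAT2, which joins the last fatty acid to triglyceride, fell by 1.06 (SE 0.20), and the identifier block gave -0.92, which is under 2-fold.

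In the list of fatty acid oxidation and PPARA targets 3 of 30 genes were higher (10%) and 2 lower (6.67%). FGF21, a fasting hormone of the liver, was at 1.69 to 7.07 CPM (median 3) in ENT-sham and 3.94 to 14.1 CPM (median 10.2) in SLE-sham (log2 fold change 1.39, SE 0.26, adjusted p = 4.48e-05). CYP4A24, an omega-hydroxylase of fatty acids, fell, with 6.04 to 35.7 CPM (median 12.6) in ENT-sham and 2.33 to 19.1 CPM (median 5.48) in SLE-sham (log2 fold change -1.42, SE 0.41, adjusted p = 0.00712). Among 19 apolipoprotein and lipoprotein genes, APOA5 and APOF were lower (10.5%, beside 2.79% of all genes) and LPL was higher (5.26%, beside 2.42%). APOA5, which helps LPL clear triglyceride, fell, with 20 to 113 CPM (median 45.4) in ENT-sham and 7.47 to 38.6 CPM (median 11.2) in SLE-sham (log2 fold change -1.94, SE 0.33, adjusted p = 7.84e-06), and 8 SLE-sham pigs were below every enteral pig. APOF, which inhibits lipid transfer between lipoproteins, fell, with 203 to 399 CPM (median 313) in ENT-sham and 92.5 to 191 CPM (median 149) in SLE-sham, and its groups were separate (log2 fold change -1.06, SE 0.16, adjusted p = 5.64e-07).

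**Figure D2:**
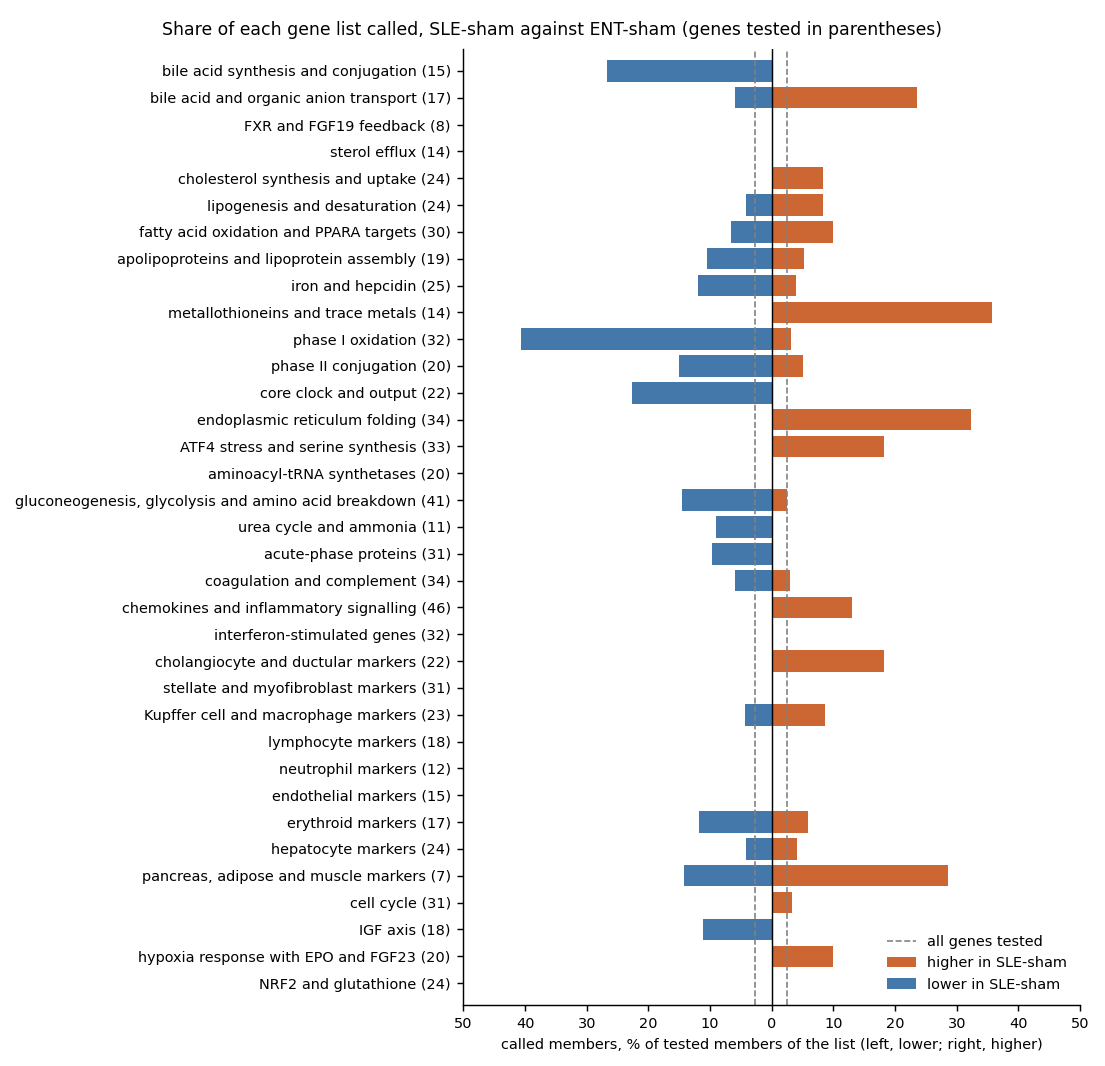
Share of the tested members of each of 35 gene lists called higher (orange, right) or lower (blue, left) in SLE-sham, with the shares of all genes tested, 2.42% higher and 2.79% lower, as dashed lines. The longest bars are phase I oxidation on the lower side (40.6%) and metallothioneins and trace metals (35.7%) and endoplasmic reticulum folding (32.4%) on the higher side.

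Phase I oxidation enzymes, which oxidise drugs, steroids, and dietary compounds, held the largest share of lower genes among the 35 lists. Of 32 tested genes 13 were lower (40.6%, beside 2.79% of all genes) and 1 was higher, and the median log2 fold change was -0.618. ADH4 (chromosome 8, 121225485-121259262), an alcohol dehydrogenase that also oxidises retinol, ranged over 6.92 to 282 CPM (median 75.5) in ENT-sham and only 5.53 to 11.7 CPM (median 7.08) in SLE-sham (log2 fold change -3.53, SE 0.40, adjusted p = 9.84e-10). The enteral range reached down to that of SLE-sham, and 4 SLE-sham pigs lay below all of them. FMO5 (chromosome 4, 100336769-100372744), a flavin monooxygenase, fell, with 132 to 758 CPM (median 610.2) in ENT-sham and 19.2 to 85.7 CPM (median 56.4) in SLE-sham with no overlap (log2 fold change -3.33, SE 0.33, adjusted p = 2.02e-11), and replicate 2 was the lowest enteral pig at 132 CPM.

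CYP2E1 (chromosome 14, 141690737-141703078), which oxidises ethanol and acetone, was at 164 to 1661 CPM (median 1219) in ENT-sham and 40.1 to 534 CPM (median 105) in SLE-sham (log2 fold change -2.70, SE 0.56, adjusted p = 0.000155). CYP1A2, which metabolises caffeine, was at 16.9 to 201 CPM (median 77.8) in ENT-sham and 5.06 to 33 CPM (median 12.3) in SLE-sham (log2 fold change -2.59, SE 0.43, adjusted p = 5.06e-06). In both, replicate 2 was the lowest enteral pig, and 6 and 7 of the SLE-sham pigs respectively lay below it. CYP2A19, the pig enzyme that clears skatole, fell by 4.83 (SE 0.70, adjusted p = 3e-07). CYP2C32 fell by 2.74 (SE 1.05, adjusted p = 0.0436), but lost its call in 19 of 33 other settings and was -0.93 with the identifier block (adjusted p = 0.577). CYP2C reads of close paralogs may be assigned to the wrong member.

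Further lower members, chosen after their values were seen, were CYP2B22 (-2.77, SE 0.57), CYP2C36 (-2.52, SE 0.57), FMO1 (-2.49, SE 0.29), CYP2C49 (-2.44, SE 0.45), AOX1 (-2.39, SE 0.25), and CYP4F55 (-1.99, SE 0.23). CYP2C42 was the 1 member called higher, with 17.2 to 72.5 CPM (median 30) in ENT-sham and 39.1 to 147 CPM (median 77.9) in SLE-sham (log2 fold change 1.2, SE 0.27, adjusted p = 0.000536), and with the identifier block it was at 0.85 and not called. It was also chosen after its values were seen. The members CYP3A22 (0.66, SE 0.27) and CYP3A29 (-0.18, SE 0.35), chosen the same way, were not called. NR1I3, the nuclear receptor CAR that induces CYP2B and CYP2C genes, fell, with 14 to 38.4 CPM (median 28.3) in ENT-sham and 4.7 to 20.2 CPM (median 10) in SLE-sham (log2 fold change -1.36, SE 0.24, adjusted p = 1.39e-05), and its groups were separate without replicate 2.

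Of 20 phase II conjugation genes 3 were lower (15%) and 1 higher (5%). SULT2A1, which sulfates bile acids and steroids, was at 142 to 319 CPM (median 210.3) in ENT-sham and 16.6 to 171 CPM (median 53.1) in SLE-sham, and 9 of 10 SLE-sham pigs were below every enteral pig (log2 fold change -1.67, SE 0.33, adjusted p = 7.9e-05). EPHX2, a soluble epoxide hydrolase, fell by 1.08 (SE 0.16). GSTA1, a glutathione transferase, fell by 1.03 (SE 0.33), a call that 11 of 34 other settings did not keep. SULT1A3, a phenol sulfotransferase, was the member that rose, from 9.88 to 42.6 CPM (median 24.9) to 37 to 101 CPM (median 60) (log2 fold change 1.44, SE 0.23, adjusted p = 2.88e-06). An unnamed gene annotated as glycine N-acyltransferase, LOC100518109, chosen after its values were seen, fell by 4.70 (SE 0.60, adjusted p = 1.89e-08).

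**Figure D3:**
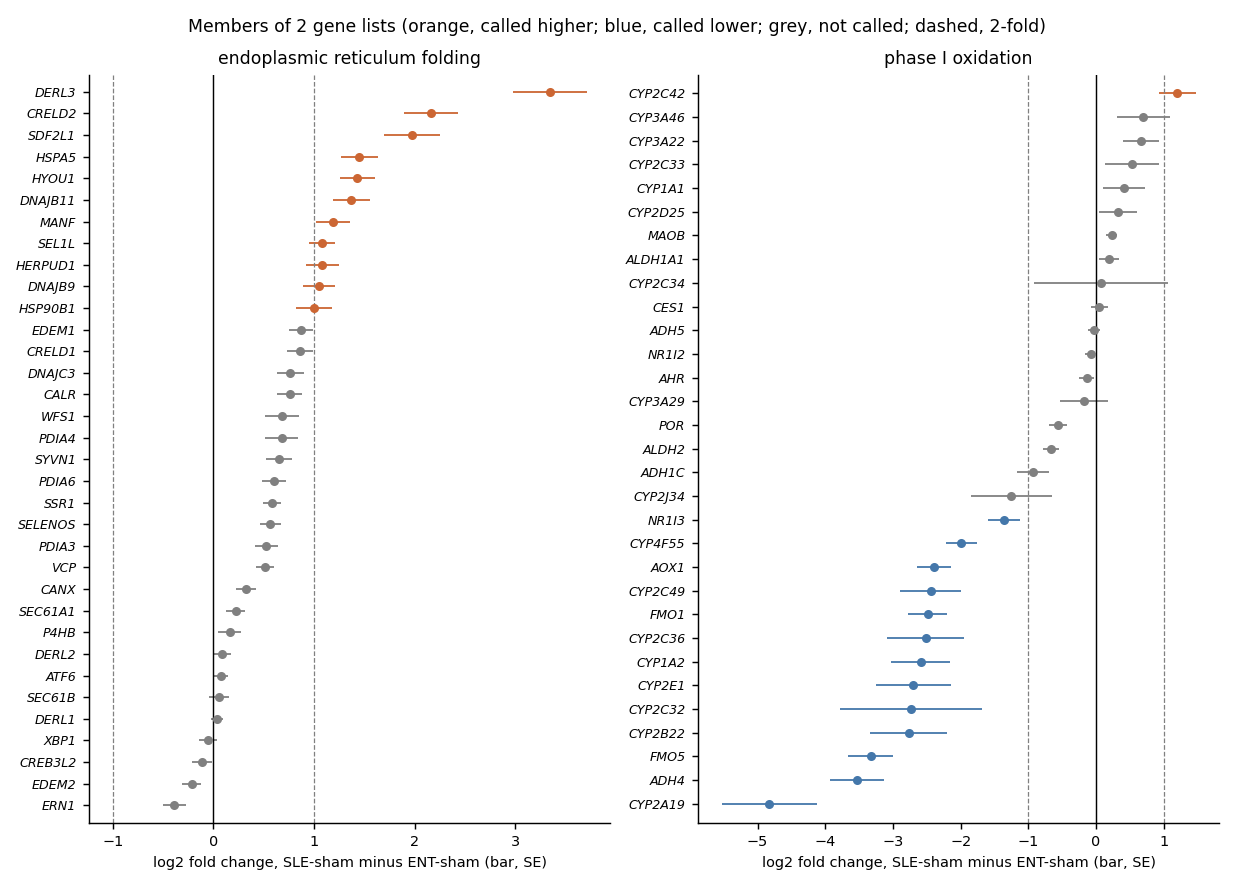
Log2 fold change of SLE-sham over ENT-sham with its SE for tested genes of endoplasmic reticulum folding (34 genes, left) and phase I oxidation (31 of 32 genes, right), with called genes in orange (higher) or blue (lower) and dashed lines at 2-fold. On the left 11 genes were called higher, with DERL3 at 3.34, and on the right 13 were called lower, with CYP2A19 at -4.83.

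Many genes for protein folding in the endoplasmic reticulum were higher in SLE-sham. Of 34 tested genes 11 were called higher (32.4%, beside 2.42% of all genes) and none was called lower. At any fold change 24 higher genes and 1 lower gene passed the adjusted p (73.5% in all, beside 27.5%). The median log2 fold change was 0.666. DERL3 (chromosome 14, 49871077-49875022), part of the channel that removes misfolded proteins, ranged over 2.38 to 11.3 CPM (median 3.35) in ENT-sham and 7.4 to 104 CPM (median 36.8) in SLE-sham (log2 fold change 3.34, SE 0.37, adjusted p = 3.92e-10). HSPA5, the main chaperone BiP, was at 405 to 979.9 CPM (median 766) in ENT-sham and 809 to 3091 CPM (median 1937) in SLE-sham, and 9 of 10 SLE-sham pigs were above every enteral pig (log2 fold change 1.45, SE 0.18, adjusted p = 1.06e-08). The remaining pig, replicate 10, was at 809 CPM. CRELD2 and SDF2L1, cofactors of that chaperone system, rose by 2.16 (SE 0.27) and 1.97 (SE 0.28). XBP1 (-0.052, SE 0.087), ATF6 (0.075, SE 0.073), and ERN1 (-0.39, SE 0.11), regulators that sense unfolded protein, were chosen after their values were seen and were not called.

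The ATF4 list, which holds targets of the amino acid and stress response, had 6 of 33 tested genes higher (18.2%) and none lower. CHAC1, which degrades glutathione, was near the floor in enteral pigs at 0 to 1.19 CPM (median 0.22) and stood at 0.642 to 3.47 CPM (median 1.22) in SLE-sham (log2 fold change 2.27, SE 0.53, adjusted p = 0.0007). DDIT4, an inhibitor of mTOR, was at 21.2 to 38.3 CPM (median 24.7) in ENT-sham and 72 to 105 CPM (median 99) in SLE-sham with separate groups (log2 fold change 1.79, SE 0.21, adjusted p = 1.6e-09). TRIB3, a pseudokinase, was at 3.02 to 21.4 CPM (median 4.67) in ENT-sham and 14.5 to 39.9 CPM (median 20.3) in SLE-sham (log2 fold change 1.70, SE 0.27, adjusted p = 2.36e-06). GDF15, a stress hormone, rose by 1.49 (SE 0.45), but the identifier block gave 1.04 (adjusted p = 0.0585). No aminoacyl-tRNA synthetase was called by edgeR or DESeq2, although 17 of 20 (85%, beside 37.1% of all genes) passed an unadjusted p under 0.05, 14 were higher at an adjusted p under 0.05, which 27.5% of all genes passed in either direction, and the median log2 fold change was 0.318. Of the most abundant members, EPRS was at 0.42 (SE 0.08) and KARS at -0.11 (SE 0.11).

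G6PC and PCK1, enzymes of glucose release from the liver, fell. In the list of gluconeogenesis, glycolysis, and amino acid breakdown 6 of 41 tested genes were lower (14.6%) and 1 higher (2.44%). G6PC (chromosome 12, 19965885-19975783), the last step of glucose release, ranged over 425 to 1329 CPM (median 889) in ENT-sham and 45.9 to 176 CPM (median 109.8) in SLE-sham, with every SLE-sham pig below every enteral pig (log2 fold change -2.80, SE 0.30, adjusted p = 8.98e-11). PCK1, the first committed step of gluconeogenesis, was at 322 to 1246 CPM (median 802) in ENT-sham and 126 to 546 CPM (median 274) in SLE-sham (log2 fold change -1.33, SE 0.34, adjusted p = 0.00184). TDO2, which breaks down tryptophan, was at 529 to 953 CPM (median 738) in ENT-sham and 206 to 371 CPM (median 280.3) in SLE-sham, also separate (log2 fold change -1.37, SE 0.12, adjusted p = 3.32e-13). CSAD, an enzyme of taurine synthesis, was the member that rose, from 23.4 to 48.8 CPM (median 34.9) to 62.9 to 155 CPM (median 101) without overlap (log2 fold change 1.54, SE 0.14, adjusted p = 1.24e-12).

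Among 11 urea cycle genes 1 was lower (9.09%, beside 2.79% of all genes) and none higher. RHBG, an ammonia channel of hepatocytes around the central vein, was at 7.41 to 71.3 CPM (median 43.3) in ENT-sham and 5.94 to 25.8 CPM (median 14.5) in SLE-sham (log2 fold change -1.69, SE 0.35, adjusted p = 0.000197), with replicate 2 as the lowest enteral pig at 7.41 CPM. In the IGF axis 2 of 18 genes were lower, beside 2.79% of all genes, and none was higher. With the identifier block 4 genes of this list were lower, and 435 of all genes were. The further list members were IGF1 (-1.06, and -0.37 without the block) and the growth hormone receptor GHR (-1.02, and -0.92 without it). Both were chosen after their values were seen. Beside IGFBP1, SOCS2, a growth hormone target that damps the signal of that hormone, fell, with 16.5 to 114 CPM (median 56.7) in ENT-sham and 9.03 to 25.6 CPM (median 10.8) in SLE-sham (log2 fold change -2.15, SE 0.25, adjusted p = 1.27e-09). LEPR (chromosome 6, 146802297-146896152), the leptin receptor, fell, with 78.9 to 300 CPM (median 121) in ENT-sham and 9.2 to 44.8 CPM (median 13.6) in SLE-sham and its groups were separate (log2 fold change -3.12, SE 0.30, adjusted p = 8.04e-12).

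In the list of the core clock and its output 5 of 22 tested genes were lower (22.7%, beside 2.79% of all genes) and none higher. At any fold change 8 lower and 2 higher genes passed the adjusted p (45.5% in all, beside 27.5%). DBP, HLF, NR1D1, and NR1D2 are transcription factors with a daily rhythm in liver. DBP was at 5.83 to 24.5 CPM (median 14.7) in ENT-sham and 3.08 to 6.59 CPM (median 4.76) in SLE-sham (log2 fold change -1.74, SE 0.22, adjusted p = 8.72e-09), and HLF from 43.4 to 107 CPM (median 79.1) to 26.1 to 62.2 CPM (median 33.6) (log2 fold change -1.15, SE 0.14, adjusted p = 3.98e-09). NR1D2 fell by 1.41 (SE 0.18). NR1D1 fell by 1.47 (SE 0.26), and it overlaps THRA on the opposite strand. In the core loop, whose genes were chosen after their values were seen, CRY1 (0.96, SE 0.12, adjusted p = 4.9e-09) and PER3 (-0.90, SE 0.12, adjusted p = 4.24e-08) stood on opposite sides of 0 at just under 2-fold, and ARNTL (0.027), CLOCK (0.29), NPAS2 (0.24), PER1 (-0.15), PER2 (0.071), and CRY2 (-0.17) did not pass the adjusted p. With the identifier block 4 genes were lower and CRY1 was called higher, at 1.07.

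The acute-phase list holds serum proteins of inflammation, along with other serum proteins and signalling genes such as the receptors IL6R and IL6ST. Its genes were lower where they were called. Of 31 tested genes 3 were called lower (9.68%, beside 2.79% of all genes) and none higher. At any fold change 12 genes, all lower, passed the adjusted p (38.7%, beside 27.5%). Among them were ALB (-0.39), TTR (-0.465), RBP4 (-0.489), IL6R (-0.862), and IL6ST (-0.356), the last 3 named after their values were seen. Where a symbol belongs to 2 genes the list holds 1 of them, so these counts include 1 of 2 C-reactive protein genes. The other, on chromosome 4 (CRP, 90793361-90801020), ranged over 7.58 to 330.6 CPM (median 108) in ENT-sham and 3.31 to 10.4 CPM (median 6.5) in SLE-sham. Replicate 2 was the lowest enteral pig, and without it the groups were separate (log2 fold change -4.24, SE 0.53, adjusted p = 1.05e-08). The counted gene next to it (90782741-90785051) fell by 1.11 (SE 0.32, adjusted p = 0.00562), and reads of the pair may be split between them. SAA2, serum amyloid A, ranged over 4.04 to 841 CPM (median 53) in enteral pigs and 5.44 to 47.5 CPM (median 10.9) in SLE-sham (log2 fold change -3.26, SE 0.87, adjusted p = 0.00347), and every SLE-sham pig lay within the enteral range. HP, haptoglobin, fell by 1.06 (SE 0.28), with a block value of -0.99.

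Coagulation and complement genes had 2 of 34 lower (5.88%, beside 2.79% of all genes) and 1 higher (2.94%, beside 2.42%). At any fold change 16 lower and 2 higher genes passed the adjusted p (52.9% in all, beside 27.5% of all genes). MBL2, mannose-binding lectin, fell by 1.46 (SE 0.56). C6, a part of the membrane attack complex, fell by 1.04 (SE 0.40). Adjusted p values of both lay near the threshold, and each lost its call in 16 of 34 other settings.

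Where chemokine and inflammatory signalling genes were called, they were higher in SLE-sham. Of 46 tested genes 6 were higher (13%, beside 2.42% of all genes) and none lower. Without replicate 2 there were 12, and 3.01% of all genes were higher. With the identifier block and that library kept there were 10. TNFRSF9, a costimulatory receptor, ranged over 0.611 to 20.4 CPM (median 1.71) in ENT-sham, where the 11 other pigs reached 7 CPM, and 6.59 to 22.9 CPM (median 12.7) in SLE-sham (log2 fold change 1.86, SE 0.40, adjusted p = 0.000308, 2.66 without replicate 2). TNFRSF12A, the receptor of TWEAK, was at 0.598 to 27.1 CPM (median 2.34) in ENT-sham and 9.08 to 23.7 CPM (median 14.1) in SLE-sham. Its groups overlapped through replicate 2 alone, and the fold change went from 1.82 (SE 0.36) to 2.88 without it. IKBKE, a kinase of NF-kappaB and interferon signalling, rose by 1.34 (SE 0.19), and FAS, a death receptor, by 1.27 (SE 0.20). FAS was also higher than in MLE-sham, by 1.18 (SE 0.22, adjusted p = 0.00167).

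None of 32 interferon-stimulated genes was called by edgeR or DESeq2, none passed the adjusted p at any fold change, and 1 (3.12%, beside 37.1% of all genes) passed an unadjusted p under 0.05. With the identifier block 1 gene, the chemokine CXCL10, was called at 1.32 (adjusted p = 0.0466) beside 1.07 without it, and the median of the list was 0.36 in place of -0.1. CXCL10 was chosen after its values were seen. IFI6 was at 34.2 to 1808 CPM (median 578) in ENT-sham and 149 to 1694 CPM (median 496) in SLE-sham (-0.19, SE 0.61), and STAT2 at -0.094 (SE 0.11).

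The values of cholangiocyte and ductular genes changed with ENT-sham replicate 2. Of 22 tested genes 4 were higher (18.2%, beside 2.42% of all genes) and none lower. Without that library 7 were higher, and 3.01% of all genes were. The median log2 fold change of the list went from 0.075 with the library to 0.423 without it. With the identifier block and the library kept, 7 were also higher and the median was 0.362. LGALS3 (chromosome 1, 184478639-184496155), galectin-3, was at 0.314 to 9.36 CPM (median 0.676) in ENT-sham, of which replicate 2 was the highest and the next reached 1.58, and at 3.36 to 60 CPM (median 14.9) in SLE-sham (log2 fold change 3.96, SE 0.45, adjusted p = 9.4e-10, 5.03 without it). SPP1 (chromosome 8, 131077786-131085334), osteopontin, a secreted protein of bile duct cells and macrophages, was at 8.77 to 71.5 CPM (median 14.1) in ENT-sham and 57.5 to 196 CPM (median 106) in SLE-sham (log2 fold change 2.50, SE 0.28, adjusted p = 8.4e-10, 2.90 without it). Both genes had separate groups once that library was left out. ELF3, an epithelial transcription factor, rose by 1.71 (SE 0.35), and KRT19, a keratin of bile ducts, by 1.26 (SE 0.25).

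MMP7 and SOX9, both linked to ductular reaction, were not called with all pigs. MMP7 ranged over 2.51 to 227 CPM (median 4.11) in ENT-sham and 9.91 to 29.6 CPM (median 20.4) in SLE-sham, with a fold change of -0.26 (SE 0.52, adjusted p = 0.764). Without replicate 2 the highest enteral pig was at 9.87 CPM, below every SLE-sham pig, and the fold change turned to 2.0 (adjusted p = 4.72e-08). SOX9 was at 3.96 to 37.9 CPM (median 6.48) and 3.37 to 11.9 CPM (median 7.82) (log2 fold change -0.47, adjusted p = 0.236), and at -0.067 without that library. TGFB1, the main profibrotic cytokine, was at 25.5 to 45.4 CPM (median 37) and 29.7 to 40 CPM (median 33.9) (log2 fold change -0.073, adjusted p = 0.721).

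**Figure D4:**
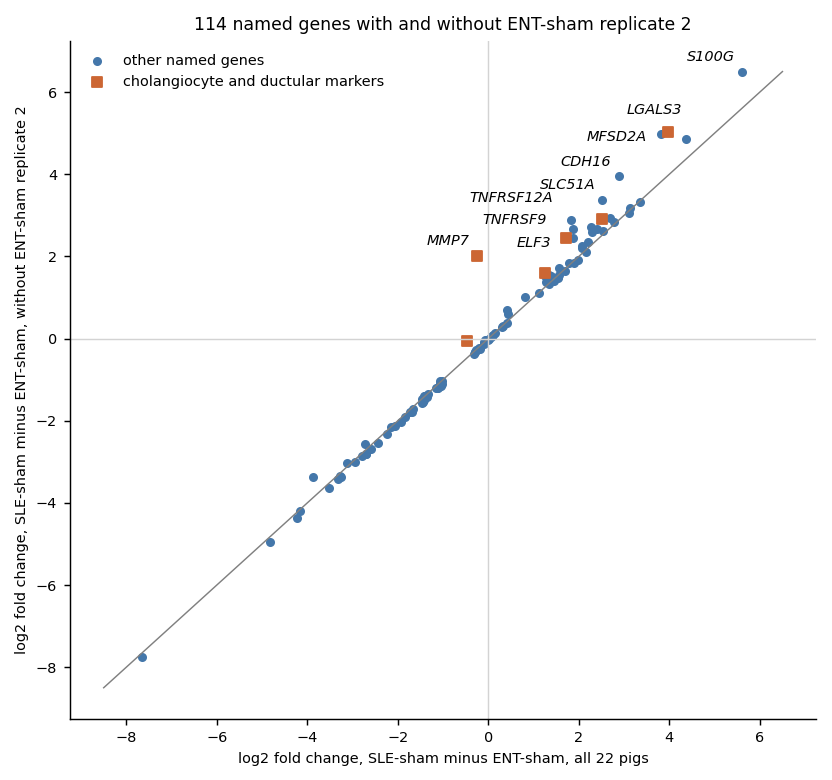
Log2 fold change of SLE-sham over ENT-sham for the 114 named genes with all 22 pigs (horizontal) and without ENT-sham replicate 2 (vertical), with the line of equal values, cholangiocyte and ductular markers as orange squares, and genes labelled where the values differ by more than 0.6. MMP7 is the point that crosses 0, from -0.26 to 2.0, and the other labelled genes have higher values without the library.

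None of 31 stellate cell and myofibroblast genes was called by edgeR or DESeq2, and 7 (22.6%, beside 37.1% of all genes) passed an unadjusted p under 0.05. Without replicate 2, TIMP1, an inhibitor of matrix proteases chosen after its values were seen, was called at 1.23 (adjusted p = 0.0301), and it was at 0.62 with that library. COL1A1 (0.41, SE 0.33) and COL3A1 (0.43, SE 0.20), collagens of scar tissue, overlapped between groups, with replicate 2 the highest enteral pig in both. Of 23 Kupffer cell and macrophage genes 2 were higher (8.7%, beside 2.42% of all genes) and 1 lower (4.35%, beside 2.79%). At any fold change 5 higher and 5 lower genes passed the adjusted p (43.5% in all, beside 27.5%). GPNMB (chromosome 9, 92037428-92071501), a glycoprotein of lipid-laden macrophages, was at 29.7 to 123 CPM (median 43.3) in ENT-sham and 116 to 469.5 CPM (median 241) in SLE-sham (log2 fold change 2.19, SE 0.25, adjusted p = 5.2e-10). TREM2, a receptor of the same cells that was chosen after its values were seen, rose by 2.61 (SE 0.54). FOLR2, a marker of resident macrophages, fell, with 15.2 to 76.9 CPM (median 43.2) in ENT-sham and 7.01 to 34.7 CPM (median 12.5) in SLE-sham (log2 fold change -1.45, SE 0.34, adjusted p = 0.00083). The others that passed the adjusted p were under 2-fold and lay on both sides of 0, with SLC11A1 (0.80), MARCO (0.65), and CD68 (0.31) higher and ADGRE1 (-0.92), HMOX1 (-0.50), TIMD4 (-0.49), and C1QA (-0.42) lower.

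No lymphocyte (18 tested), neutrophil (12), or endothelial (15) marker was called by edgeR or DESeq2. At an unadjusted p under 0.05 there were 0 lymphocyte genes, 1 neutrophil gene (8.33%), and 5 endothelial genes (33.3%), beside 37.1% of all genes. CD4 was at 0.11 (SE 0.15) and NKG7 at 0.31 (SE 0.16), FCGR3A at 0.067 (SE 0.18), STAB1 at -0.27 (SE 0.15), and STAB2 at -0.0093 (SE 0.24). CSF3R, a neutrophil receptor, passed the adjusted p at 0.82 (SE 0.30), under 2-fold, and was called without replicate 2, at 1.01. With the identifier block 4 of 12 neutrophil genes were called higher and the median of the list went from 0.259 to 0.872. These 4, chosen after their values were seen, were S100A8 (1.68), S100A9 (1.41), LTF (1.34), and MMP8 (1.70), proteins of neutrophil granules and cytoplasm, and without the block they had values of 0.95, 0.69, 0.18, and 0.99. Of 17 erythroid genes 2 were lower (11.8%) and 1 higher. HBB, beta-globin, fell, with 458 to 2257 CPM (median 1116) in ENT-sham and 206 to 756 CPM (median 408) in SLE-sham (log2 fold change -1.44, SE 0.34, adjusted p = 0.000777), and ALAS2, which starts heme synthesis in red cells, fell by 1.02 (SE 0.33), a call lost in 13 of 34 other settings. Newborn liver still makes blood cells and also holds circulating ones.

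In hepatocyte markers 1 of 24 was higher (4.17%, beside 2.42% of all genes) and 1 lower (4.17%, beside 2.79%). At any fold change 4 higher and 9 lower genes passed the adjusted p (54.2% in all, beside 27.5%). AFP, the fetal albumin that fades after birth, rose, with 1369 to 5077 CPM (median 2316) in ENT-sham and 2012 to 11481 CPM (median 7709) in SLE-sham (log2 fold change 1.42, SE 0.23, adjusted p = 1.94e-06), and 6 of 10 SLE-sham pigs were above every enteral pig. Of the 7 defining hepatocyte genes, ALB (-0.39) and TTR (-0.46) passed the adjusted p below 0 and TF (0.76) above 0, all at under 2-fold. CPA1, a pancreatic carboxypeptidase, was low in both groups and fell by 1.14 (SE 0.35), a call not kept with the identifier block. The cell cycle list had 1 of 31 genes higher (3.23%, near the 2.42% of all genes), the inhibitor CDKN1A (chromosome 7, 32354776-32363771), known as p21. It was at 14.3 to 40.6 CPM (median 20.6) in ENT-sham and 44.7 to 121 CPM (median 74.8) in SLE-sham without overlap (log2 fold change 1.57, SE 0.18, adjusted p = 8.5e-10). At any fold change 3 higher genes and 1 lower gene of this list passed the adjusted p (12.9% in all, beside 27.5% of all genes). The median log2 fold change of the list was 0.009.

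In the list of hypoxia response 2 of 20 genes were higher (10%). PFKFB3, which speeds glycolysis, rose, with 4.13 to 37 CPM (median 7.83) in ENT-sham and 27.4 to 137 CPM (median 43.7) in SLE-sham (log2 fold change 2.29, SE 0.32, adjusted p = 1.57e-07), and FGF23, a phosphate hormone made mainly in bone, also rose, with 0.0667 to 2.51 CPM (median 0.681) in ENT-sham and 0.729 to 6.12 CPM (median 3.15) in SLE-sham (log2 fold change 1.90, SE 0.52, adjusted p = 0.004). None of 24 NRF2 and glutathione genes was called by edgeR or DESeq2, and 12 (50%) passed an unadjusted p under 0.05, beside 37.1% of all genes. SRXN1, which repairs oxidised peroxiredoxins and was chosen after its values were seen, was called without replicate 2 (1.15) and with the identifier block (1.10), and had 0.74 with all pigs and no block. CAT, catalase, was at -0.31 (SE 0.17) and GPX1, a glutathione peroxidase, at 0.089 (SE 0.15).

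Of the 114 genes chosen for naming, the largest rise was that of S100G (chromosome X, 13107611-13114213), calbindin, a calcium-binding protein best known from intestine and kidney. It was at 0.389 to 14 CPM (median 1) in ENT-sham, with replicate 2 the highest and the next pig at 3.15, and at 24.5 to 303 CPM (median 99.1) in SLE-sham. All 10 SLE-sham pigs were above all enteral pigs (log2 fold change 5.61, SE 0.51, adjusted p = 1.94e-12). MAL, a protein of apical membrane sorting, was at 0.611 to 10.4 CPM (median 5.93) in ENT-sham and 22 to 75.6 CPM (median 49.8) in SLE-sham, also separate (log2 fold change 3.10, SE 0.32, adjusted p = 5.56e-11). CDH16, a cadherin of kidney epithelium, was at 2.82 to 93.2 CPM (median 6.13) in ENT-sham and 42.1 to 169 CPM (median 108) in SLE-sham, and the groups overlapped through replicate 2 alone (log2 fold change 2.88, SE 0.43, adjusted p = 5.53e-07, 3.95 without it).

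TNNI2, a troponin of fast skeletal muscle, was at 1.38 to 8.94 CPM (median 4.08) in ENT-sham and 12.3 to 69.3 CPM (median 22) in SLE-sham and its groups were separate (log2 fold change 2.79, SE 0.35, adjusted p = 1.5e-08). Of the defining muscle markers CKM, chosen after its values were seen, rose by 3.46 (SE 0.43), with 0 to 0.392 CPM (median 0.126) in ENT-sham and 0.565 to 3.68 CPM (median 1.62) in SLE-sham. MYH7 was at 0.69 (SE 0.40, adjusted p = 0.206). The remaining muscle markers, MYH2 and ACTA1, were too low to be tested. MYH2 had medians of 0.046 CPM in ENT-sham and 0.0289 CPM in SLE-sham, and ACTA1 had 0 counts in 10 ENT-sham and 9 SLE-sham pigs. Whether muscle tissue in the sample plays a part was not tested. GAREM2, an adaptor of growth factor signalling, rose by 2.69 (SE 0.43) with separate groups. ANKRD33 rose by 2.53 (SE 0.41) and TCEAL9 by 2.41 (SE 0.27).

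Further large falls were those of UOX, ESM1, and FST. UOX (chromosome 6, 129343632-129374833), urate oxidase, which pigs unlike humans still use to break down uric acid, was at 14.5 to 55.1 CPM (median 29.2) in ENT-sham and 0.939 to 6.68 CPM (median 1.98) in SLE-sham without overlap (log2 fold change -3.27, SE 0.38, adjusted p = 1.38e-09). ESM1, a proteoglycan of endothelial cells, was at 5.85 to 41.3 CPM (median 20.1) in ENT-sham and 0.695 to 6.89 CPM (median 2.65) in SLE-sham (log2 fold change -2.95, SE 0.36, adjusted p = 4.15e-09). FST, follistatin, which binds activin, was at 4.64 to 34 CPM (median 18.5) in ENT-sham and 0.514 to 6.05 CPM (median 2.33) in SLE-sham (log2 fold change -2.71, SE 0.39, adjusted p = 1.94e-07). In the latter pair 9 and 8 of the 10 SLE-sham pigs lay below every enteral pig.

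A test of whether the difference of SLE and ENT was the same after ligation was made as an interaction within the same model. It passed at an adjusted p under 0.05 for 369 genes (2.28%), and for 764 without ENT-sham replicate 2. The interaction shares the sham pigs with the comparison above, and the library closest to ENT-sham replicate 2 is in ENT-BDL. In LGALS3 the log2 fold change was 3.96 in sham and 0.62 in ligated pigs (difference 3.34, SE 0.59, adjusted p = 0.000731), in SPP1 2.50 and 0.39 (2.12, SE 0.39, adjusted p = 0.00136), and in GPNMB 2.19 and 0.25 (1.95, SE 0.34, adjusted p = 0.000718). HMGCS1 had 2.06 and 0.30 (1.76, SE 0.29, adjusted p = 0.000276). Without ENT-sham replicate 2 the differences were 4.40 for LGALS3, 2.51 for SPP1, 2.11 for GPNMB, and 1.95 for HMGCS1.

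Median levels show where the ligated groups stood. LGALS3 had a median of 0.676 CPM in ENT-sham, 14.9 in SLE-sham, 15.6 in ENT-BDL, and 27.9 in SLE-BDL. SPP1 had medians of 14.1, 106, 85.2, and 108 CPM in the same order, and ADH4 of 75.5, 7.08, 13.7, and 7.71 CPM. MMP7 had medians of 4.11, 20.4, 84.7, and 64 CPM, and SOX9 of 6.48, 7.82, 15.3, and 13.7 CPM. The SLE-sham median lay between those of ENT-sham and ENT-BDL for LGALS3, MMP7, and SOX9, and beyond that of ENT-BDL for SPP1 and ADH4. These 5 genes were chosen after their values were seen. HAMP kept its diet difference after ligation, with medians of 73 CPM in ENT-BDL and 0.442 in SLE-BDL, and IGFBP1 did so with 572 and 56.9 CPM. The log2 fold change of SLE-BDL over ENT-BDL was -6.75 for HAMP (adjusted p = 1.9e-15) and -2.44 for IGFBP1 (adjusted p = 5.74e-05).

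**Figure D5:**
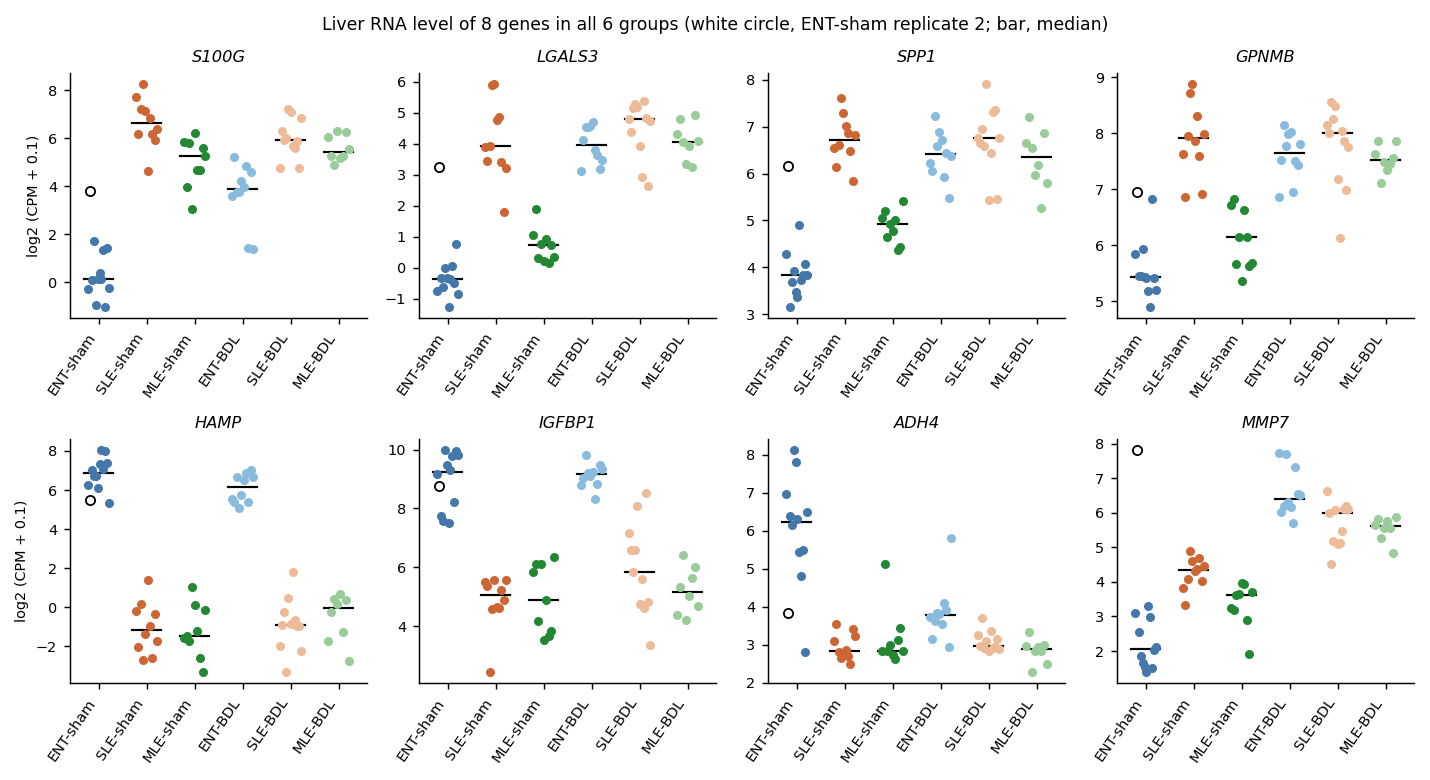
Level of 8 genes in each pig of all 6 groups, as log2 (CPM + 0.1), with the median as a bar and ENT-sham replicate 2 as a white circle. HAMP and IGFBP1 were high in both enteral groups, LGALS3, SPP1, and GPNMB were low in ENT-sham and MLE-sham, and replicate 2 lies above the rest of ENT-sham for S100G, LGALS3, SPP1, and MMP7.

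Against MLE-sham, which received PN with the mixed emulsion, SLE-sham differed at 73 genes (0.45%), 54 higher and 19 lower. This comparison shares the SLE-sham pigs with the one above. LGALS3 was higher in SLE-sham than in MLE-sham by 3.85 (SE 0.51, adjusted p = 7.39e-06), LPL by 4.36 (SE 0.65, adjusted p = 5.08e-05), SPP1 by 1.91 (SE 0.31, adjusted p = 0.000313), and GPNMB by 1.83 (SE 0.27, adjusted p = 5.08e-05). CD36, a fatty acid receptor of macrophages and other cells that was chosen after its values were seen, was higher by 1.62 (SE 0.30) than in MLE-sham and by 1.70 (SE 0.27) than in ENT-sham.

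Many of the genes described above were not called between the emulsions. HAMP differed by 0.24 (SE 0.69), IGFBP1 by -0.31 (SE 0.46), MT1D by -0.13 (SE 0.13), ADH4 by -0.43 (SE 0.40), and CDKN1A by 0.24 (SE 0.19), none past the adjusted p. A miss of the threshold does not show that the emulsions act alike, and for genes of large SE such as CYP7A1 (0.77, SE 0.94) the interval is wide.

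The number in each pig identifier was unevenly spread. Of the 12 ENT-sham pigs, 7 carried a number that no SLE-sham pig had, and of the 10 SLE-sham pigs 2 carried a number that no ENT-sham pig had. What the number stands for is not given in the sources used here. When the model also fitted this number, 862 genes were called, 658 of them among the 846, and 840 of the 846 kept their sign. In the 4 numbers that both groups share, with 8 SLE-sham and 5 ENT-sham pigs, 702 of the called genes could be tested, 505 were called, and 700 had the same sign. Within each of these 4 numbers taken alone, 666 called genes had the same sign as in the whole. The genes were chosen by the contrast that holds these same pigs, so the shared signs describe the spread and are not an independent test. HAMP had a fold change of -8.55 in the shared numbers alone, IGFBP1 -4.34, S100G 6.44, and FMO5 -3.50.

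SLE-sham pigs differed in how far they stood from the enteral group. Set against the 11 enteral pigs other than replicate 2, a pig lay above all of them for 65.9% to 82.2% of the 393 higher genes and below all of them for 55.2% to 66.9% of the 453 lower genes. Replicates 9 and 10, with the same pig identifier, had the lowest shares of higher genes (65.9% and 66.4%), and replicates 4 and 5, which share another number, the highest (82.2% and 81.9%). As the genes were chosen by this contrast, these shares describe the spread among pigs and test nothing.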

How the data were processed

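Liver RNA of 22 sham pigs, 12 ENT-sham and 10 SLE-sham, was analysed within the table of all 60 pigs. The authors deposited raw read counts per gene. The submitters' processing notes name HISAT2 2.0.5, StringTie 1.3.3, and featureCounts 1.5.0-p3 with the build Sscrofa11.1, and coordinates are those of the deposited table. Libraries were poly(A) selected. The 24 rows without a gene name (0.00842% to 0.0407% of counts) were left out. Groups and replicate numbers were taken from the labels.

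Counts were filtered with filterByExpr over the 6 groups, scaled by TMM, and fitted for all 60 pigs with edgeR 4.0.16 (glmQLFit with robust estimation, glmQLFTest, R 4.3.3, limma 3.58.1). Adjusted p values are Benjamini-Hochberg values over all 16210 genes tested. The comparison of sham and BDL differences and that of SLE-sham and MLE-sham came from the same fit. DESeq2 1.42.0, other scaling and filters, blocks, and leaving out each pig were tried as alternatives. Figures were drawn with matplotlib 3.10.9. On simulated counts with 200 changed genes for the comparison of SLE-sham with ENT-sham (16059 genes), 190 were recovered by edgeR, with 6 false calls, and 191 by DESeq2, with 16.

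Members and lists were chosen with earlier results of these data known. Named genes were the 12 largest rises and 12 largest falls among called genes that had a symbol and reached a mean log2 CPM (prior count 2) of 2, up to 4 called genes of each list with a mean of at least 0 or the 2 most abundant where none was called, and CYP7A1, FGF19, NR1H4, NR0B2, SOX9, MMP7, TGFB1, and HAMP. A few genes that the rule picks are not reported here. Other genes are said to be chosen after their values were seen. The libraries held 14469788 to 21139248 counts, and a floor of 3 counts was used; it covers counting error only. No sequences were used here.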

Additional observations from a re-analysis of the deposited data

Results flagged for a closer look

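In 12 of the 114 named genes a single SLE-sham pig stood apart by Dixon's ratio. This is the gap to the nearest pig over the range of the group, taken on log2 CPM with a prior count of 2. Chance flags about 1 in 20 groups, so some of these flags can arise by chance. IGFBP1 was at 5.27 CPM in replicate 3 against 24.1 to 47.2 in the others (ratio 0.691). In replicate 10, HSPA5 was at 809 CPM against 1643 to 3091 (ratio 0.529), HMGCS1 at 479 against 779 to 1257 (ratio 0.504), and FST at 0.514 against 1.9 to 6.05 (ratio 0.51). Replicate 2 was high for LEPR, at 44.8 CPM against 9.2 to 18.4 (ratio 0.565), and for STAT2, at 267 against 153 to 185 (ratio 0.657). The same pig was low for MAL, at 22 CPM against 40.3 to 75.6 (ratio 0.49), and for GDF15, at 0.729 against 1.62 to 3.31 (ratio 0.515). SAA2 was high in replicate 8, at 47.5 CPM against 5.44 to 14.4 (ratio 0.552), MT1D in replicate 5, at 13509 against 7456 to 10058 (ratio 0.497), and NR1D2 in replicate 9, at 35.7 against 18.1 to 22.1 (ratio 0.704). CPA1 was low in replicate 1, at 0.22 CPM against 0.898 to 3.06 (ratio 0.492).

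In 19 named genes the SLE against ENT difference was not the same in sham and ligated pigs by the interaction test of edgeR, with all libraries in the fit. Of genes higher in SLE-sham, the sham difference exceeded that in ligated pigs by 3.47 on the log2 scale for S100G (adjusted p = 0.00136), 3.34 for LGALS3 (adjusted p = 0.00073), 2.97 for LPL (adjusted p = 0.0174), 2.58 for CDH16 (adjusted p = 0.00877), and 2.48 for TNFRSF9 (adjusted p = 0.00825). It did so by 2.12 for SPP1 (adjusted p = 0.00136), 2.01 for TNNI2 (adjusted p = 0.0153), 1.95 for GPNMB (adjusted p = 0.000718), 1.76 for HMGCS1 (adjusted p = 0.000276), and 1.66 for MAL (adjusted p = 0.0252). Smaller excesses were 1.23 for IKBKE (adjusted p = 0.00631), 1.14 for SULT1A3 (adjusted p = 0.0494), and 1.04 for FAS (adjusted p = 0.036).

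Of genes lower in SLE-sham, the sham value was below the ligated value by -5.13 on the log2 scale for the CRP gene at 90793361-90801020 (-4.24 in sham and 0.888 in ligated pigs, adjusted p = 1.8e-05) and -2.08 for its neighbour (-1.11 and 0.965, adjusted p = 0.00508). HP had a difference of -1.93 (-1.06 and 0.872, adjusted p = 0.00295). SLE-BDL replicate 7 stood at 131 CPM for the first of these CRP genes, where the next SLE-BDL pig was at 27.2 CPM. It also held the highest SLE-BDL value of HP, 21714 CPM. Medians of ENT-BDL and SLE-BDL were 12.3 and 13.8 CPM for that CRP gene, and 3645 and 5568 CPM for HP. A fit without that pig was not run. The differences were -2.55 for ADH4 (adjusted p = 0.00358), -2.35 for FST (adjusted p = 0.00793), and -1.23 for SLCO1A2 (adjusted p = 0.0293).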

How the results depend on the processing

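Of the 91 called genes among the 114 named, 66 kept call and direction in all 34 settings tried, and 11 more did so in the 33 settings that could test them, as the filter of 10 counts in every pig removed 14 named genes. MMP7 was the 1 named gene that reversed: its value of -0.26 became 1.85 with DESeq2 on the groups compared, 1.66 with the identifier block, 1.77 in shared identifier numbers alone, 2.0 when both matching ENT libraries were left out, and 2.01 with the identifier block and ENT-sham replicate 2 left out, a setting added after the data were seen. Leaving out 1 pig at a time gave MMP7 values from -0.37 to 2.0, the last without ENT-sham replicate 2. The 846 called genes became 366 (175 higher and 191 lower) when 10 counts in every pig were required, which leaves fewer genes to test, and 4463 (2220 and 2243) at any fold change. Other settings gave 668 with edgeR on the groups compared to 1189 with no filter on low counts, and 799 to 926 with 1 pig left out. DESeq2 on all pigs gave 869, RLE scaling 848. The 369 genes of the interaction became 764 without ENT-sham replicate 2 and 726 without both matching libraries; the cause was not tested. Replicate numbers did not pair pigs: deviations of the 10 same-numbered pairs correlated at -0.124 to 0.0341, and the replicate block gave 832 calls (414 higher and 418 lower), with 364 for the interaction. Depth limits the lowest genes, such as LPL, MFSD2A, and CHAC1, whose enteral values rest on a few reads, and HAMP, whose SLE-sham values do.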
